A study of Schizophyllum commune with 6 samples.

Results

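The genes described here are 92 gene models of the split-gill mushroom Schizophyllum commune whose transcripts were low in strain E6 alone. They were chosen on their measured levels, given as RPKM (reads scaled by model length and library depth), from 14652 gene models. A model had to reach 10 RPKM in all 4 libraries of the dhc2 knockout and of strain 12-43, and the lowest of those 4 values had to be at least 4 times the higher E6 value. The dhc2 knockout and 12-43 also had to lie within 2-fold of each other, on group means with 0.5 RPKM added. Models at 0 in both E6 libraries were dropped, as was bbr2, a pheromone receptor gene of the B mating-type locus. The members' levels and their differences between groups were therefore part of the choice and are descriptions. Calls from a fit over all models are given for them beside the share of all models called, and support nothing about them.

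There were 3 groups of 2 libraries each, made from mycelium that was grown at 28 °C and, after transfer to cellophane on fresh CYM plates, for 3 days. E6 is a wild-type strain labelled with mating type A4,6 and B2,1. The dhc2 group is a mutant that lacks a dynein heavy chain gene and is labelled A3,5 and B2,2. The wild-type strain 12-43 carries the same labelled mating type, A3,5 and B2,2, as the mutant. How many independent knockout clones there were is not given in the sources used here. The strain labels call all samples monokaryons, whereas the growth protocol speaks of a mating interaction. Nothing in the labels says that the replicates came from separate cultures, so the spread between them may be technical.

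Schizophyllum commune is a basidiomycete that grows as a monokaryon, with 1 kind of nucleus per cell, until it meets a partner that differs at the A locus (homeodomain proteins) and the B locus (pheromones and their receptors). The species is known for unusually large sequence diversity between strains. Hydrophobins, small secreted proteins, coat its aerial hyphae and fruiting bodies. SC3 is the hydrophobin of aerial hyphae, and SC4 is known from the dikaryon and its fruiting bodies. SC3 was at 21811 and 23009 RPKM in E6, at 4842 and 4704 RPKM in the dhc2 knockout and at 10907 and 13868 RPKM in 12-43. SC4 was at 3.23 and 3.66 RPKM in E6, at 8.08 and 5.37 RPKM in the dhc2 knockout and at 251 and 509 RPKM in 12-43. The monokaryon label thus stood beside high SC3 in all 3 groups, and SC4 was above 10 RPKM in 12-43 only among the 3 groups. SC1 and SC6, listed with SC4 as dikaryon markers, did not both follow it. SC1 was at 7.57 and 10.01 RPKM in E6 and at 12.65 and 12.2 RPKM in the dhc2 knockout. It reached 29.8 and 57.7 RPKM in 12-43. SC6 was at 4.28 and 4.54 RPKM in E6 and at 3.49 and 5.04 RPKM in the knockout. In 12-43 it was at 2.68 and 3.47 RPKM.

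The libraries held 17735309 to 25842890 raw reads, and the denominators behind the RPKM were 46.0% to 58.7% of these. In E6 that share was 46.0% and 53.0%. The dhc2 knockout had 55.6% and 58.7%, and 12-43 had 56.0% and 49.4%. E6 had 1593 and 1529 models at 0, the knockout 1480 and 1539, and 12-43 had 1524 and 1675, so E6 did not stand apart by its empty models. A further split came from the quality reports, which list the 5-base sequence GAAGA as enriched in both knockout libraries and in 12-43 replicate 1 but not in 12-43 replicate 2 or in E6. Lower transcript levels in E6 and fewer reads placed on a model because its sequence differs or is missing in E6 cannot be told apart in these data. Fewer cells of a type and less RNA per cell cannot be told apart either.

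Of the 14652 models, 7268 were at 10 RPKM or more in all 4 knockout and 12-43 libraries, and 6202 of these had both groups within 2-fold. The 92 members were 1.48% of those 6202 models. Another 5 models met the thresholds with no read in either E6 library. The receptor gene bbr2 was at 0.0574 and 0.122 RPKM in E6, against 26.5 and 27.8 RPKM in the dhc2 knockout and 18.9 and 12.5 RPKM in 12-43.

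The margin cut through a continuous range of values. Just inside it lay models 1151991, 1191717 and 1128176, whose lowest knockout or 12-43 value was 4.13, 4.17 and 4.18 times the higher E6 value. Just outside lay models 1038742, 17408 and 1161263, with quotients of 3.96, 3.83 and 3.82. The quotient ranged from 4.13 to 501 among the members, with a median of 7.01. It was between 4 and 6 in 37 members, between 6 and 10 in 21, between 10 and 20 in 14, between 20 and 100 in 8, and above 100 in 12.

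**Figure D1:**
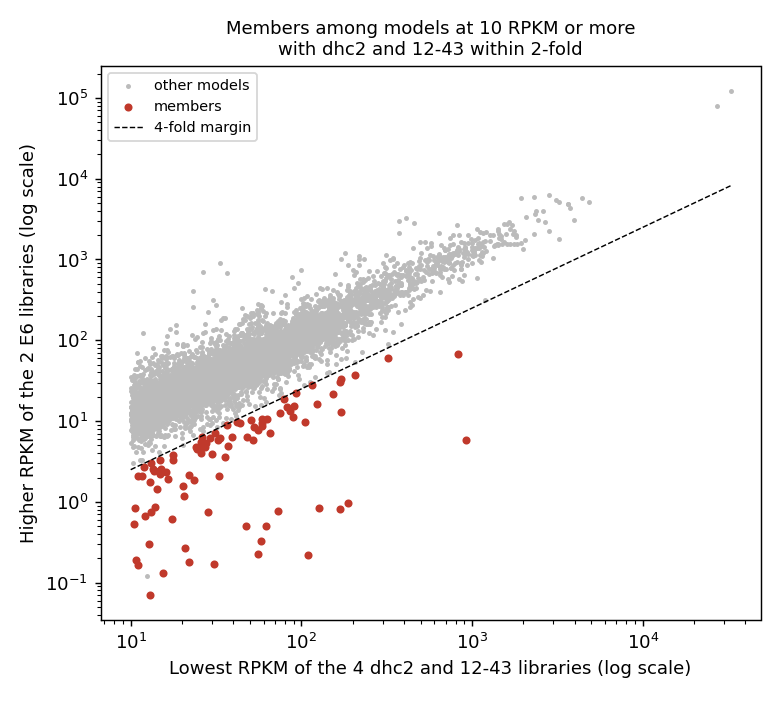
Each point is 1 of the 6202 gene models at 10 RPKM or more in the dhc2 knockout and 12-43 with both groups within 2-fold, except the 5 at 0 in both E6 libraries. The x axis gives the lowest RPKM of those 4 libraries and the y axis the higher RPKM of the 2 E6 libraries, both on log scales. Members (red) lie below the dashed 4-fold line, close to it for the 37 with quotients of 4 to 6 and far below it for the 12 above 100. The grey point below the line is bbr2.

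In the dhc2 knockout and 12-43 most of the 92 genes lay above the median level of all models. Their median level was 39.7 RPKM in the knockout and 43.4 RPKM in 12-43, where the medians over all 12484 models that passed a filter on low reads were 21.5 and 19.9 RPKM. The minimum of 10 RPKM was asked of the members but not of those models, so the higher medians follow in part from the choice. In E6 the median of the members was 3.62 RPKM, against 18.7 RPKM over all those models. All 92 members passed the filter. Group means of single members ran from 0.0598 to 57.8 RPKM in E6, from 11.6 to 979 RPKM in the knockout and from 10.8 to 1876 RPKM in 12-43. The members took 0.0629% and 0.0665% of the read denominator in E6, against 0.688% and 0.692% in the knockout and 0.654% and 0.655% in 12-43. Both E6 libraries thus had a like share for the set, as did both libraries of each other group. Across the 92 genes, which are not replicates and share the same libraries, the mean level in the other 4 libraries and the mean E6 level had a rank correlation of 0.60. The margin capped each member's E6 level by its level in the other libraries. Part of this correlation therefore comes from the choice, and nothing is read from it.

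**Figure D2:**
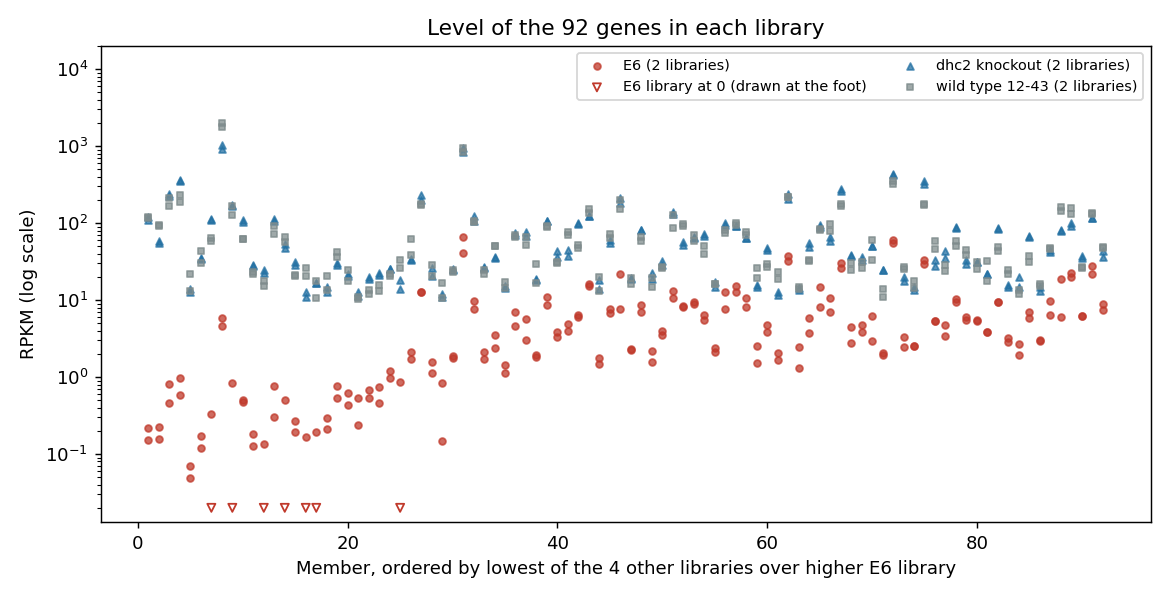
RPKM (log scale) of the 92 members in each library, ordered from left to right by the lowest of the 4 knockout and 12-43 values over the higher E6 value. E6 points (red circles) lie below the points of the dhc2 knockout (blue triangles) and of 12-43 (grey squares) at every member, as the choice requires, and 7 members had an E6 library at 0 (open triangles at the foot).

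A first group of members had few reads in E6. In both E6 libraries 24 of the 92 members were below 1 RPKM, which rested on 1 to 33 E6 reads per member in all, and 11 of the 92 had at most 3. Model 1193176 had the largest quotient. It was at 0.218 and 0.154 RPKM in E6, at 121 and 109 RPKM in the dhc2 knockout and at 121 and 116 RPKM in 12-43, which corresponds to 1 read in each E6 library against 754 to 864 reads in the knockout and 505 to 848 in 12-43. Per read of the denominator it was 637-fold lower in E6 than in the knockout (exact binomial 95% interval 176 to 5263) and 659-fold lower than in 12-43 (182 to 5444). These intervals cover counting error only and are wide because they rest on 2 E6 reads.

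Model 83333 (locus tag SCHCODRAFT_02640116) had 1 and 2 reads in E6, against 575 and 529 reads in the libraries of the dhc2 knockout and 925 and 545 in 12-43. It was 290-fold lower in E6 than in the knockout (95% interval 98.9 to 1407) and 477-fold lower than in 12-43 (163 to 2316). Model 1340215 (SCHCODRAFT_01340215) had 1 read in each E6 library, against 317 and 299 reads in the knockout and 274 and 239 in 12-43. Both were thus nearly empty in E6, and the levels of model 1340215 in the other 4 libraries, 30.7 to 42.8 RPKM, were within the range of most members.

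Model 1136981 was more abundant, at 0.819 and 0.464 RPKM in E6, at 227 and 239 RPKM in the dhc2 knockout and at 168 and 210 RPKM in 12-43. Model 1163885 was at 0.587 and 0.969 RPKM in E6, at 357 and 362 RPKM in the knockout and at 189 and 233 RPKM in 12-43. Their E6 levels rest on 5 and 4 reads for model 1136981 and on 3 and 7 reads for model 1163885. In both genes the lowest of the other 4 values was about as far from E6, with quotients of 206 and 195, and the knockout was above 12-43.

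Model 1163891 lay below the members' median in all groups, with 0.0495 and 0.0701 RPKM in E6, 12.9 and 13.95 RPKM in the dhc2 knockout and 13.3 and 21.8 RPKM in 12-43. Its coding length of 2193 nt still gave 407 and 424 reads in the knockout and 409 and 419 in 12-43, against 1 and 2 in E6. Model 1108741 had 2 and 3 reads in E6, 674 and 699 reads in the knockout and 396 and 250 reads in 12-43. Nearly empty E6 libraries were thus found at both low and high levels in the other groups.

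Of the 92 members, 7 were at 0 in 1 of the E6 libraries. Model 1206596 had 1 and 0 reads in E6, against 514 and 511 reads in the libraries of the dhc2 knockout and 295 and 168 in 12-43. Model 1260454 had 0 and 5 reads in E6, 1114 and 1048 reads in the knockout and 1051 and 507 in 12-43. In all, 2 members were at 0 in E6 replicate 1 and 5 others in E6 replicate 2. For a model of 1 kb, the 3 reads that a listed 0 still allows would be 0.326 RPKM in E6 replicate 1 and 0.231 RPKM in E6 replicate 2.

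The most abundant member, model 238931 (SCHCODRAFT_02754047, coding length 333 nt), was at 4.56 and 5.77 RPKM in E6, at 1038 and 920 RPKM in the dhc2 knockout and at 1747 and 2005 RPKM in 12-43. All E6 values lay far below both other groups, and the knockout values lay below those of 12-43. It averaged 5.17 ± 0.852 RPKM in E6, 979 ± 84.1 RPKM in the knockout and 1876 ± 183 RPKM in 12-43 (SD, n = 2 each). On the log2(RPKM + 0.5) scale of the fit it differed by -7.36 between E6 and the knockout and by -8.30 between E6 and 12-43. It held 0.270% of the members' reads in E6, 4.73% in the knockout and 9.40% in 12-43.

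The second most abundant member, model 1268082, kept a clear level in E6. It was at 66.8 and 41.3 RPKM there, at 945 and 831 RPKM in the dhc2 knockout and at 834 and 952 RPKM in 12-43. The knockout and 12-43 overlapped. E6 averaged 54.0 ± 18.0 RPKM, the knockout 888 ± 80.3 RPKM and 12-43 893 ± 83.7 RPKM (SD, n = 2 each), with log2 differences of -3.98 between E6 and the knockout and -3.995 between E6 and 12-43.

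The other 8 of the 10 most abundant members were either near-empty or reduced in E6. Models 1136981 and 1163885, above, were near-empty. Model 1109004 was at 54.7 and 60.8 RPKM in E6, at 415 and 428 RPKM in the dhc2 knockout and at 356 and 323 RPKM in 12-43. Together with model 1268082 and model 1260425, which was at 32.2 and 36.8 RPKM in E6, at 207 and 235 RPKM in the knockout and at 218 RPKM in both 12-43 libraries, it had the highest E6 means of all members. These 3 genes were above the median of all models in E6 and still below each other library, with quotients of 5.31, 12.4 and 5.63 for models 1109004, 1268082 and 1260425.

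Model 1187765 was at 32.8 and 29.1 RPKM in E6, at 354 and 319 RPKM in the dhc2 knockout and at 171 and 178 RPKM in 12-43. Model 79797 (SCHCODRAFT_02644666) was at 26.1 and 30.4 RPKM in E6, at 263 and 276 RPKM in the knockout and at 175 and 167 RPKM in 12-43. In both genes the groups were ordered with E6 lowest and the knockout highest, without overlap. Model 1039531, of 219 nt, was at 12.9 and 12.6 RPKM in E6, at 232 and 202 RPKM in the knockout and at 171 and 177 RPKM in 12-43. In total 19 of the 92 members reached 10 RPKM in at least 1 E6 library, and 54 had at least 50 E6 reads in all, so for these the E6 level was not limited by a count near 0.

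The SD of the log2 ratio between replicates (RPKM + 0.5) was 0.49 over the members in E6, 0.14 in the dhc2 knockout and 0.31 in 12-43. Over all models tested that SD was 0.30 in E6, 0.22 in the knockout and 0.36 in 12-43. The members were thus less even between the E6 libraries than models at large, at lower E6 reads. Of the 92 members, 5 had E6 libraries more than 2-fold apart on that scale, and no member had knockout or 12-43 libraries that far apart. Model 17204 (SCHCODRAFT_02636145) was at 7.76 and 21.5 RPKM in E6, at 181 and 213 RPKM in the knockout and at 153 and 199 RPKM in 12-43. Model 40122 (SCHCODRAFT_02502504) was at 6.09 and 18.6 RPKM in E6, at 79.3 and 81.9 RPKM in the knockout and at 144 and 160 RPKM in 12-43. Both were higher in E6 replicate 2 than in replicate 1. With E6 replicate 1 alone their quotients were 19.7 and 13.02, and with replicate 2 alone 7.12 and 4.26, so model 40122 is a member by a narrow margin in 1 library. Model 17408 (SCHCODRAFT_02639534), just outside the margin, was at 89.9 and 311 RPKM in E6 and also higher in replicate 2.

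Limma, fitted to log2(RPKM + 0.5) of all 6 libraries, called all 92 members lower in E6 than in the dhc2 knockout and all 92 lower in E6 than in 12-43 (adjusted p under the threshold of 0.05). It called none of them higher in E6. Over all 12484 models tested, 30.6% were called higher in E6 than in the knockout and 30.2% higher than in 12-43, while 32% were called lower in E6 than in the knockout, 29.2% lower than in 12-43 and 17.6% lower than in both. Both E6 libraries were below all 4 others in 29.3% of all models. With the GAAGA split as a covariate, 19.7% of all models and still 92 of 92 members were called lower in E6 than in the knockout. The choice of the members used these contrasts, so nothing is read from their count. The median log2 difference of the members was -3.22 between E6 and the knockout and -3.10 between E6 and 12-43, where the median over all models was -0.01 in each. Both comparisons share the E6 libraries. Within the libraries that lack GAAGA in the quality reports, E6 against 12-43 replicate 2, the median was -3.06, and against 12-43 replicate 1 it was -3.09. The 4-fold margin was asked of each of these 12-43 libraries, so nothing is read from these medians.

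Between the dhc2 knockout and 12-43 the choice allowed differences of up to 2-fold, and the members used most of that range. The quotient of the knockout and 12-43 means ran from 0.516 to 1.95, with a median of 1.07. It was above 1 in 51 members and below 1 in 41, and 36 members were within 1.2-fold. Limma called 22 members higher and 12 lower in the knockout (adjusted p under 0.05), which is 23.9% and 13% of the members, against 27.9% higher and 26.8% lower over all models tested. Without knockout replicate 1 the counts were 11 higher and 7 lower, against 20.4% higher and 18.5% lower over all models. Without knockout replicate 2 they were 12 and 7, against 20.7% and 18.6% over all models. Because the 2-fold limit was set on the same values, nothing is read from the difference.

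The members with the highest knockout levels relative to 12-43 were models 70603 (SCHCODRAFT_02515739), 1198696 and 1136310. Model 70603 was at 66.4 and 68.4 RPKM in the dhc2 knockout and at 31.1 and 37.4 RPKM in 12-43, with 5.84 and 7.08 RPKM in E6. Model 1198696 was at 99.0 and 96.5 RPKM in the knockout and at 48.0 and 51.9 RPKM in 12-43, with 5.96 and 6.33 RPKM in E6. Model 1136310 was at 24.3 and 24.8 RPKM in the knockout and at 11.1 and 13.8 RPKM in 12-43, with 2.07 and 1.91 RPKM in E6. In each of the 3 genes both knockout libraries were above both 12-43 libraries, and the log2 difference was 0.97 (SE 0.15), 0.96 (SE 0.11) and 0.96 (SE 0.16).

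At the other end, model 1193121 (SCHCODRAFT_01193121) was at 12.6 and 10.97 RPKM in the dhc2 knockout and at 20.3 and 26.3 RPKM in 12-43, with 0.167 and 0 RPKM in E6. Models 238931 and 40122, described above, were the other members with the lowest quotients of knockout over 12-43. Their log2 differences between knockout and 12-43 were -0.94 (SE 0.14) and -0.91 (SE 0.42), and that of model 1193121 was -0.95 (SE 0.22). Both knockout libraries were above both 12-43 libraries in 42 members and below both in 27. The like share over all models was not worked out, so nothing is read from these counts.

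**Figure D3:**
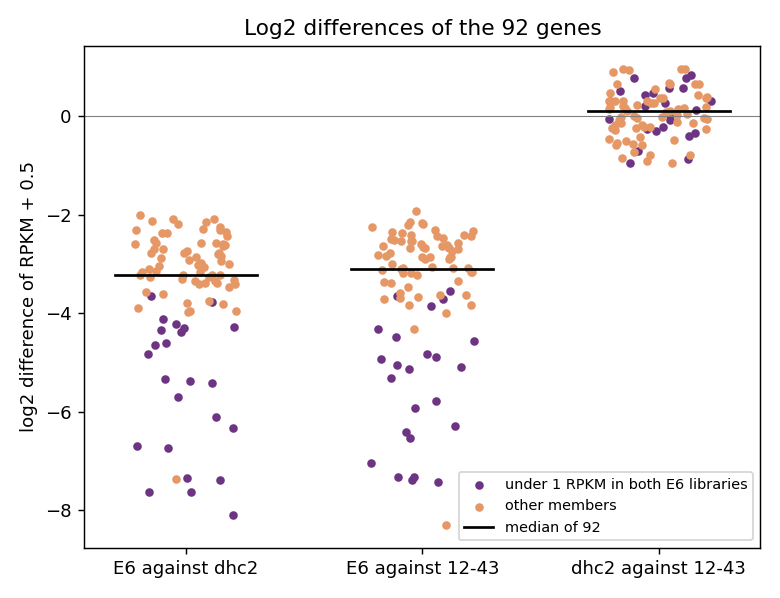
Each point is 1 of the 92 members. The y axis gives the fitted log2 difference of RPKM + 0.5 for E6 against the dhc2 knockout, E6 against 12-43 and the knockout against 12-43, and black bars are medians (-3.22, -3.10 and 0.10). Purple points are the 24 members under 1 RPKM in both E6 libraries. In both E6 comparisons they overlap the other members (orange) at the upper end of their range. In the knockout against 12-43 the purple and orange points cover much the same range. Model 238931 is the lowest orange point in both E6 comparisons, at -7.36 and -8.30.

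The coding lengths recovered from the RPKM were somewhat shorter among the members than overall. The median was 881 nt (quartiles 546 and 1517 nt), against 1137 nt (696 and 1699 nt) over all models tested. The 24 members under 1 RPKM in both E6 libraries had a median of 657 nt and the other 68 a median of 1004 nt. The shortest member had 204 nt and the longest, model 1192495, had 3750 nt. These are descriptions, and shorter models have fewer reads at the same RPKM.

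Locus tags could be given to 25 of the 92 members (27.2%), close to the 23.9% of all models tested, by matching identifiers against RefSeq genes (assembly Schco3). None of the 25 has a gene symbol, and the files pair no identifier with a name, so no function is stated for any member. Of 39 genes with a symbol, none was a member. The hydrophobin gene Hyd4 came closest after bbr2 among those at 10 RPKM or more with both groups within 2-fold. It was at 1.65 and 3.26 RPKM in E6, at 14.97 and 11.6 RPKM in the dhc2 knockout and at 14.01 and 14.9 RPKM in 12-43, with a quotient of 3.55.

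Limma called 17.6% of all models lower in E6 than in both other groups and 17% higher than in both, and lists of named genes are set beside these shares. Of 13 tested genes of the B mating-type locus 10 were lower in both comparisons and 1 was higher in both. Those lower include bbr2, which the choice left out, and pheromone genes with almost no E6 reads. For example, bbp2-1 had 0 reads in both E6 libraries, against 263 and 249 in the knockout and 109 and 63 in 12-43. Other genes called lower kept a clear level in E6. Of these, brl3 was at 74.4 and 75.6 RPKM in E6, 100 and 103 RPKM in the knockout and 150 and 127 RPKM in 12-43. Likewise brl4 was at 23.5 and 23.7 RPKM in E6, 31.9 and 31.1 RPKM in the knockout and 37.8 and 29.6 RPKM in 12-43. E6 is labelled B2,1 and the other groups B2,2, and whether the count of 10 lower genes goes with that labelled difference was not tested. Of 9 tested hydrophobin genes 2 were lower in both and 1 was higher in both. Of 8 regulators of fruiting-body formation 3 were lower in both and none was higher. Among these regulators WC1, a blue-light receptor, was at 7.29 and 8.16 RPKM in E6, at 15.7 and 15.8 RPKM in the dhc2 knockout and at 13.2 and 12.5 RPKM in 12-43. The transcription factor gene Fst3 was at 19.95 and 22.3 RPKM in E6, at 46.6 and 46.5 RPKM in the knockout and at 47.3 and 36.9 RPKM in 12-43. Fst4, the third regulator called lower in both, was at 40.4 and 42.7 RPKM in E6, at 62.3 and 59.0 RPKM in the knockout and at 67.0 and 58.2 RPKM in 12-43. These 3 genes had E6 below the other groups without overlap, by less than the margin that the members meet. The regulators c2h2, hom1 and Bri1 also had E6 below without overlap, with quotients of 1.19, 1.02 and 1.02, but were not called lower in both. Both E6 libraries lay below the 4 others in 29.3% of all models. WC2, the partner of WC1, lay the other way, at 30.5 and 30.7 RPKM in E6, at 20.4 and 21.5 RPKM in the knockout and at 29.3 and 23.9 RPKM in 12-43. Gat1 overlapped between the groups, at 119 and 166 RPKM in E6, at 146 and 136 RPKM in the knockout and at 155 RPKM in both 12-43 libraries. The lists were drawn up with earlier results of these data known.

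RefSeq gene order gave a view of the surroundings of the 25 matched members. Within 4 places on either side, 21 members had at least 1 neighbour with a value. There were 34 tested neighbours that were no members. Neighbours that met the rule are left out of these, so the levels of the 34 were limited by the choice. The log2 difference between E6 and the mean of the other groups was -0.27 in the median of these neighbours (quartiles -0.67 and 0.43), against -3.04 in the 25 matched members and 0.0047 over all models tested. Limma called 7 of the 34 neighbours (20.6%) lower in E6 than in both other groups, against 17.6% over all models. Members are taken out of the first share but not of the second, so nothing is read from their nearness. Of the 34, 3 were at or below -2 on that scale. Among them model 237183 was not low in E6 alone. It was at 0.402 and 0.285 RPKM in E6 and at 0.258 and 0.468 RPKM in the dhc2 knockout, against 21.9 and 20.7 RPKM in 12-43.

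Directly beside a member, 11 tested neighbours had values from -2.26 to 1.16 with a median of -0.54. Both genes directly beside model 1105701 (SCHCODRAFT_01105701) were called lower in E6 than in both other groups. Of these, model 237910 had 4 and 11 reads in E6, against 124 and 129 in the libraries of the dhc2 knockout and 44 and 23 in 12-43. The other, model 79337, had 235 and 297 reads in E6, against 519 and 488 in the knockout and 3176 and 2169 in 12-43. The genes on either side of model 17204 differed in direction. Model 70174 had 1044 and 1391 reads in E6, against 2175 and 2086 in the knockout and 3312 and 1824 in 12-43, and was called lower in E6 than in both other groups, with a log2 difference of -0.65 on the RPKM scale. Model 237186, on the other side, had 929 and 1163 reads in E6, against 476 and 431 in the knockout and 861 and 557 in 12-43, and its log2 difference was 1.16.

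Near-empty genes lay close to each other in 2 places. Models 1193121 and 1340215, both members, were 3 places apart. They had 1 and 0 reads and 1 and 1 reads in E6, and 99 to 317 reads in each library of the dhc2 knockout and 12-43. Model 1163888 (SCHCODRAFT_01163888), a member with 3 and 6 reads in E6, against 1021 and 1014 in the knockout and 832 and 488 in 12-43, lay 2 places from model 1257052. Model 1257052, no member, had no read in either E6 library, against 161 and 165 reads in the knockout and 115 and 72 in 12-43. Most members have no match in the table, so neighbouring members may be missed.

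**Figure D4:**
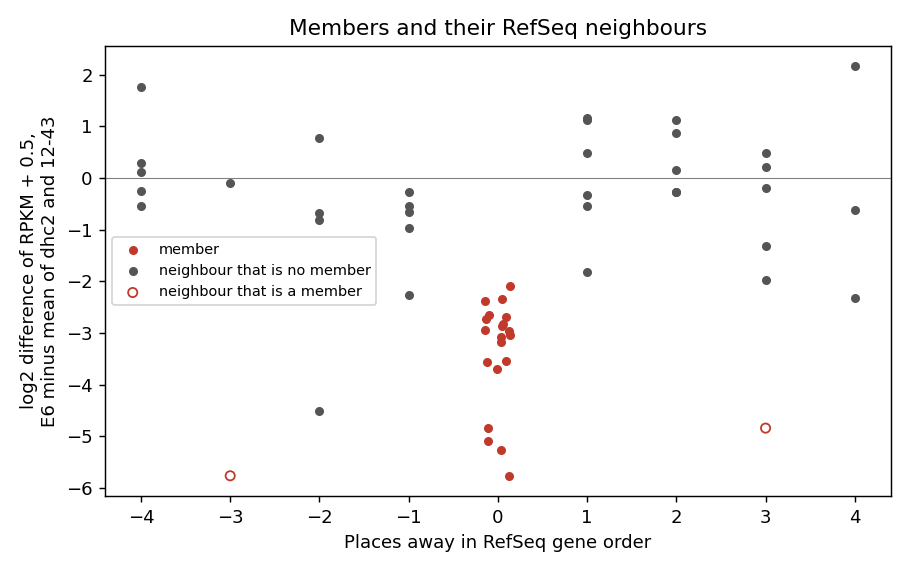
The y axis gives the log2 difference of RPKM + 0.5 between E6 and the mean of the dhc2 knockout and 12-43, and the x axis the number of places from the member in RefSeq gene order. The 20 members with a tested neighbour are drawn in red at 0 and lie below -2, whereas most of the 34 neighbours that are no members (grey) lie between -1 and 1. Open circles are models 1193121 and 1340215, each the other's neighbour.

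The same thresholds were applied to the other groups for comparison, without dropping any gene by name. They found 44 models low only in the dhc2 knockout and 123 low only in 12-43, beside the 92 in E6. Turned round, they found 98 models high only in E6, 108 high only in the knockout and 77 high only in 12-43. There the minimum of 10 RPKM was asked only of the 2 libraries of the high group, and not of 4 libraries. The high and low patterns thus drew on different pools of models. A quotient of 20 or more was reached by 20 of the 92 models low only in E6 (21.7%), by 4.55% of those low only in the knockout and by 16.3% of those low only in 12-43. Among the models high in 1 group only it was reached by 29.6% in E6, by 8.33% in the knockout and by 18.2% in 12-43. No test was made of these shares.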

How the data were processed

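The members and lists were chosen with earlier results of these data known. The authors deposited RPKM per gene model with a decimal comma, followed by a FastQC 0.9.2 report, per the file headers. Per the labels, single reads of 50 bases were sequenced from an mRNA-based library. TopHat, DESeq and edgeR appear, without version, in the submitters' processing notes. The sources used here do not give genome build, annotation, counting rules or use of strand, so reads of near-identical, overlapping or antisense genes can be split in unknown ways.

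Reads, denominators and coding lengths (multiples of 3) were solved from the steps of the RPKM. All 13715 models above 0 came out whole within 0.005 reads plus rounding, as lower bounds where reads share a factor. Denominators were 8769918 to 14372979. The planned limma 3.58.1 fit (R 4.3.3) used log2(RPKM + 0.5) after TMM scaling (trimming 30% of M and 5% of A), all 6 libraries with 3 residual degrees of freedom, trended variance and Benjamini-Hochberg adjustment at 0.05. Models entered with 0.744 CPM (10 reads at median depth) in 2 libraries and 15 reads in all. Folds on this scale understate low genes. The rule used RPKM as deposited. Identifiers were matched to RefSeq (Schco3) by current or older locus tag (3634 of 14652, 4 ambiguous left out). Intervals are exact binomial at 95%. Scripts were tested on simulated data. Named members were the 10 most abundant, the 10 with the largest quotient, the 3 at the margin, the 3 at each end of knockout over 12-43, the 3 highest in E6, and members near each other. Other models were named after their values were seen.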

Additional observations from a re-analysis of the deposited data

How the results depend on the processing

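The log2 differences of the 25 named members against the knockout and 12-43 gave 550 values under pseudocounts, scalings and left-out libraries, of which 58 moved by more than the replicate spread and 0 changed sign. The 4-fold margin of the choice left no room for a change of sign under these settings, so nothing is read from that 0. With a margin of 6-fold 55 models met the rule. With other margins, minima, limits and scaling it was met by 65 to 134 models, and with 1 library left out by 93 to 102, of which 87 to 90 were among the 92.

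The median log2 difference of the members between E6 and 12-43 was -3.21 with a pseudocount of 0.1, -2.63 with 2 and -3.16 with unscaled RPKM, and between -3.14 and -2.99 with 1 library left out. Between E6 and the dhc2 knockout it was -3.34 with a pseudocount of 0.1, -2.82 with 2 and -3.34 with the GAAGA split as a covariate, and between -3.29 and -3.10 with 1 library left out. Between the knockout and 12-43 it was 0.082 with upper-quartile scaling and between 0.0693 and 0.125 with 1 library left out. The covariate was chosen after seeing the data. With it 4728 models were called between E6 and the knockout, against 7824 without. GAAGA differs within a group only between the 12-43 libraries, so the covariate rests on that pair, and this comparison loses precision with it. How far that accounts for the fewer calls was not tested. All other alternatives gave 6076 to 7586 calls between E6 and 12-43, 5890 to 8201 between E6 and the knockout and 4848 to 7099 between the knockout and 12-43.

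With the replicate block 7213 models were called between E6 and 12-43, 7632 between E6 and the knockout and 6578 between the knockout and 12-43, against 7420, 7824 and 6829. Deviations of same-numbered replicates correlated at 0.0255 for E6 and 12-43, -0.0015 for E6 and the knockout and 0.00303 for the knockout and 12-43, so the numbers are taken as names only.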
